A study of Mus musculus with 20 samples.

Results

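The transcripts described here are 10 genes of meningeal and perivascular fibroblasts, chosen as a list of names from the 49671 genes of each count table: the collagens Col1a1, Col1a2 and Col3a1, the proteoglycans Dcn and Lum, the growth factor Igf2 and its binding protein Igfbp2, the matrix protein Aebp1, and the transporters Slc6a13 and Slc22a6. All 10 were found and all 10 passed the filter on low counts that left 18427 genes for testing. Expression was measured by bulk RNA sequencing of single frozen hippocampi from 20 adult male wild-type mice aged 10 to 12 weeks, 5 per group, in a study of what immune checkpoint inhibition does to the brain. The control group carried no tumour and received isotype-matched antibody. The group called ICI, for immune checkpoint inhibitors, carried no tumour and received anti-CTLA-4 at 1 mg per dose 3 times a week and anti-PD-1 at 200 µg per dose 2 times a week, both into the peritoneum. The melanoma group received the isotype antibody after D4M-3A.UV2 cells, a mouse melanoma line of the same genetic background, had been injected on both sides into the skin at 500000 cells and left for 1 week to engraft. The melanoma plus ICI group carried the same tumours and received both checkpoint antibodies for 3 weeks. All brains were collected 72 hours after dosing ended. The tumours were grown in the skin, outside the tissue sampled.

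Fibroblasts of the brain lie outside its tissue proper, in the membranes around it and in the sheaths of its larger vessels. They secrete fibrillar collagen and the proteoglycans that space its fibres, and their barrier layer carries transporters that clear small molecules from the cerebrospinal fluid. The same membranes, and the choroid plexus that lies close to the hippocampus, are the main sources of insulin-like growth factor 2 in the adult mouse brain. In bulk RNA, fewer cells of a type and less RNA per cell cannot be told apart.

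Libraries held 21990624 to 25735149 counts. Control replicate 4 and melanoma plus ICI replicate 1 stood apart from the other 18 on the first principal component of all tested genes, at -71.4 and -61.5 against -27.5 to 40.9. The numbers within the library names run in blocks by group that do not interleave, so any handling order they may record cannot be told apart from the groups. ICI replicate 5 and melanoma plus ICI replicate 1 carry the same number, 64. Their counts differed by a chi-square of 57.8 per gene, within the 8.67 to 109 of all 150 pairs of libraries from different groups. Markers of hippocampal neurons were present in every library, with summed levels between 347.1 and 1402 CPM (counts per 1000000 of the scaled library total). Markers of neighbouring tissue varied widely: the summed level of 12 choroid plexus genes, none of which was at 0 in any library, ranged from 39.23 to 6435 CPM in control and 25.31 to 2291 in ICI, with 48.85 to 3798 in melanoma and 72.59 to 6830 in melanoma plus ICI. The summed level of 24 fibroblast markers outside the list of 10 ranged from 537.1 to 1270 CPM in control and 350.5 to 918.1 in ICI, with 608 to 1290 in melanoma and 806.8 to 1261 in melanoma plus ICI.

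Across the 20 libraries the 10 genes differed more between animals than between groups. Their median biological coefficient of variation, the spread between animals of 1 group beyond counting noise, was 0.51, against 0.18 for all tested genes, and each of the 10 lay above at least 87.6% of tested genes. The share of variance between groups had a median of 25.2% over the 10 genes and of 14.5% over all tested genes. The highest library exceeded the lowest by between 4.57-fold, for Aebp1, and 15.1-fold, for Dcn. In melanoma plus ICI replicate 4 all 10 genes lay above their median over the libraries, while in ICI replicates 2 and 3 and melanoma replicate 1 none did. Of the 50 values in each group, 25 lay above the gene's median in control and 16 in ICI, with 21 in melanoma and 38 in melanoma plus ICI. The map of deviations by library shows that these high and low libraries occur within the groups.

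**Figure D1:**
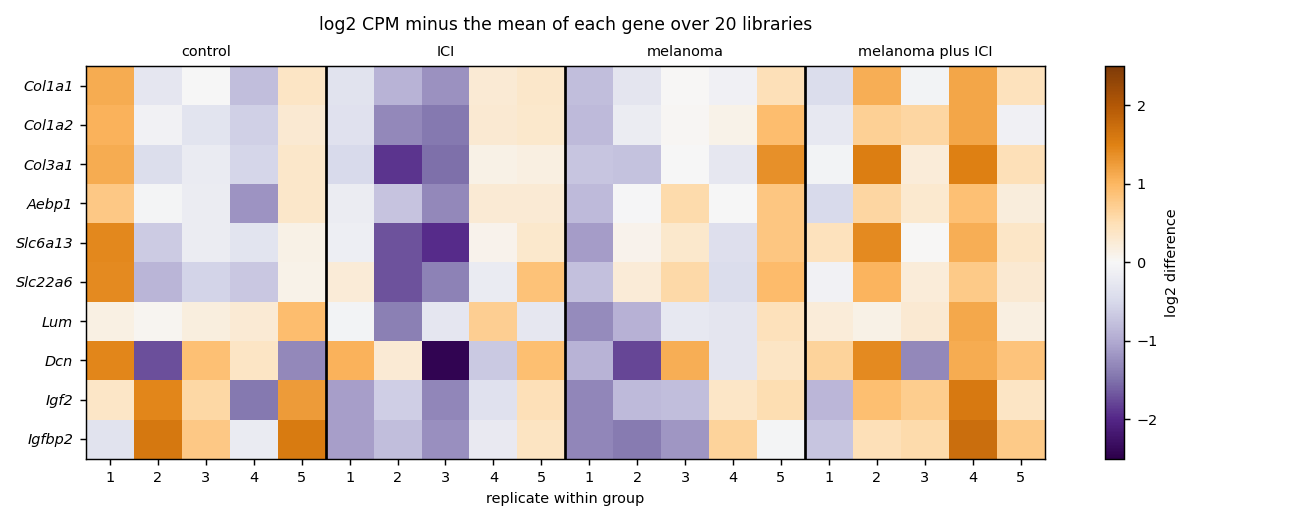
Deviation of each gene (rows) from its own mean log2 CPM over 20 libraries (columns, by group and replicate), with higher values in orange and lower values in purple. Melanoma plus ICI replicate 4 was above the median for all 10 genes and ICI replicate 3 below it for all 10, and control replicates 1 and 2 differ in which genes are high.

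Expressed per kilobase of annotated exon, which allows levels to be compared between genes, Igfbp2 had the highest mean over the libraries, at 29.97 ± 21.73 CPM per kilobase (SD, n = 20). Igf2 followed at 18.77 ± 12.2 and Dcn at 17.44 ± 11.05, then Aebp1 at 7.24 ± 2.87 and Slc6a13 at 3.52 ± 2.04. Col1a1 lay at 2.06 ± 1.01, Slc22a6 at 2.01 ± 1.09, Col1a2 at 1.66 ± 0.78, Lum at 1.58 ± 0.67 and Col3a1 at 0.35 ± 0.24. Each neighbouring pair in this order had means closer together than the SD of the higher of both, except Aebp1 above Slc6a13 and Lum above Col3a1. Annotated exon length includes every isoform, so it lowers the value most for genes with many, such as Col1a2 with 100 exon entries over 12426 bases.

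The 3 fibrillar collagen genes encode the chains of type I collagen (Col1a1, Col1a2) and of type III collagen (Col3a1), the tension-bearing fibres of connective tissue. In the deposited coordinates, which match mouse build GRCm38 for most genes, Col1a1 lies on the forward strand at chr11:94936224-94953042, Col1a2 at chr6:4504814-4541544 and Col3a1 at chr1:45311538-45349706. All 3 had their lowest group mean in ICI and their highest in melanoma plus ICI, and for none did the groups separate. No 2 groups separated for any of the 10 genes, and over all named genes tested only 0.31% to 1.54% separated in a pair of groups, so nearly every gene shares this overlap. Col3a1 was at 6.27, 2.13, 2.46, 1.94 and 3.65 CPM in the 5 control libraries and at 2.02, 0.71, 0.95, 3.13 and 3.24 in ICI. It was at 1.72, 1.66, 2.86, 2.38 and 7.51 in melanoma and at 2.71, 8.39, 3.37, 8.37 and 4.05 in melanoma plus ICI. Its 3 highest values were in melanoma plus ICI replicates 2 and 4 and melanoma replicate 5, the 2 lowest were in ICI, and every pair of groups overlapped. These values rest on 16 to 212 counts per library.

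Col1a1 averaged 14.28 ± 7.51 CPM (SD, n = 5) in control and 10.27 ± 4.66 in ICI, with 11.5 ± 3.64 in melanoma and 18.1 ± 8.37 in melanoma plus ICI. Col1a2 averaged 21.02 ± 10.31, 14.88 ± 7.87, 20.15 ± 9.17 and 26.58 ± 10.58 in the same order. Both genes of type I collagen varied together within libraries: the ratio of Col1a1 to Col1a2 CPM had a median of 0.66 and stayed between 0.41 and 0.96, while each gene alone spanned 5.30-fold and 6.09-fold.

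**Figure D2:**
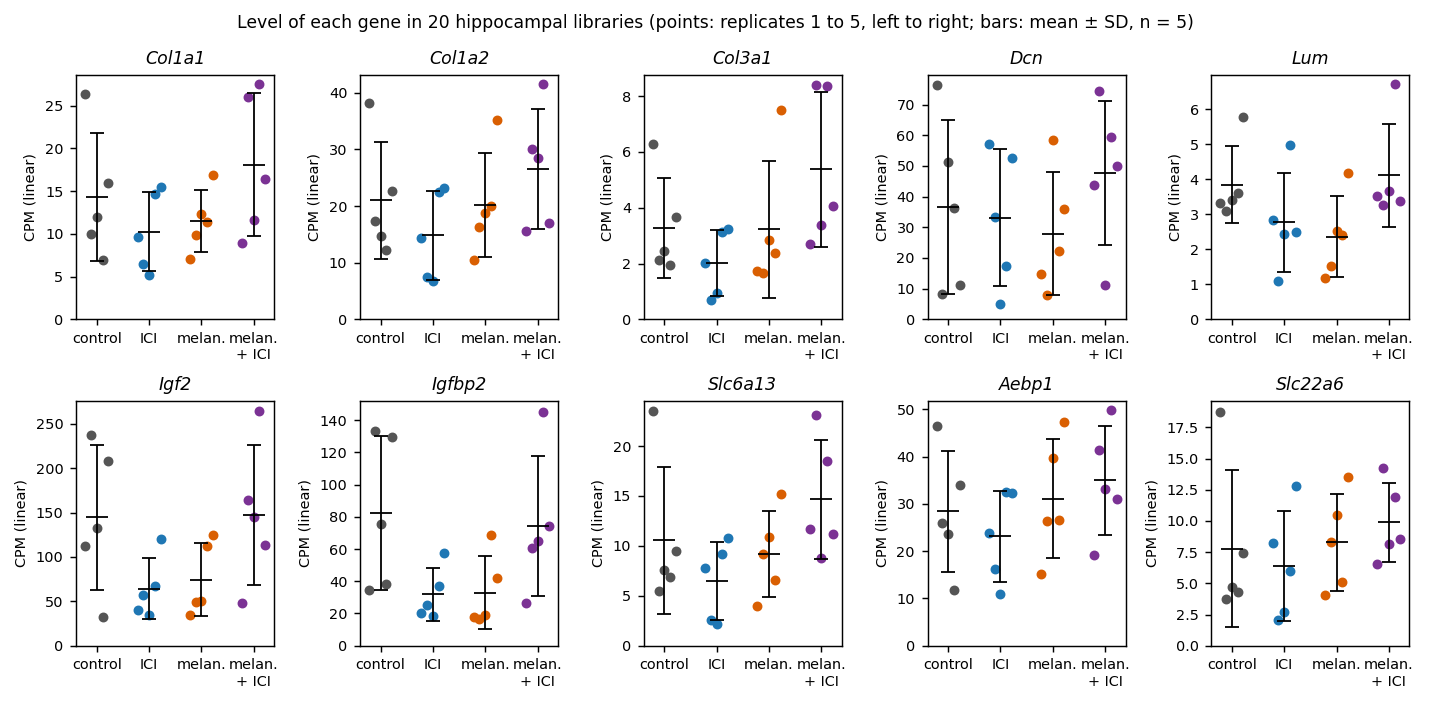
Level in CPM (linear axis from 0) of each of the 10 genes in every library, by group, with the mean and SD of 5 libraries as bars. The groups overlap for all 10 genes, as they do for most genes tested (0.31% to 1.54% separate in a pair of groups), and single high libraries such as control replicate 1 for Slc22a6, at 18.77 CPM, set much of the spread.

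Dcn and Lum encode decorin and lumican, small leucine-rich proteoglycans that bind collagen fibrils and regulate their width. They are neighbours on chromosome 10, Dcn at 97479500 to 97518162 and Lum at 97565501 to 97572703, both on the forward strand, 47.3 kilobases apart with no gene of the tables lying wholly between them. These positions and the distance are those of the deposited tables, whose start or end differs from GENCODE M21 for Dcn, Lum and Slc22a6 among the 10 genes. Their levels were nonetheless unlike: Dcn took between 1.95 and 30.3 times the CPM of Lum in single libraries. Dcn was at 76.22, 8.29, 51.13, 36.3 and 11.28 CPM in control and at 57.18, 33.46, 5.05, 17.3 and 52.44 in ICI. It was at 14.76, 7.98, 58.48, 22.44 and 36.07 in melanoma and at 43.69, 74.43, 11.26, 59.35 and 49.87 in melanoma plus ICI. Each group held at least 1 library under 12 CPM and 1 above 57, so that only 7.7% of its variance on the log2 scale lay between groups.

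Lum was at 3.33, 3.11, 3.42, 3.6 and 5.79 CPM in control and at 2.83, 1.1, 2.43, 4.98 and 2.49 in ICI. It was at 1.18, 1.54, 2.51, 2.42 and 4.17 in melanoma and at 3.53, 3.26, 3.68, 6.71 and 3.38 in melanoma plus ICI. The control and the melanoma plus ICI libraries all lay above 3 CPM, and 4 of the 5 libraries in each of the other groups lay below it. Replicate 4 of ICI and replicate 5 of melanoma were the exceptions, so those groups overlapped the first pair.

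Igf2 encodes a growth factor that acts through the receptors Igf1r and Igf2r, and Igfbp2 a secreted protein that binds it. Igf2 lies on the reverse strand at chr7:142650766-142666816 and shares 98 exonic bases with the antisense gene Igf2os, whose counts came to 0.61% of those of Igf2. Whether reads were counted by strand is not given in the sources used here, so this small part of the counts cannot be told apart. Igfbp2 lies on the forward strand at chr1:72824503-72852474. Both genes had lower means in ICI and in melanoma than in control and in melanoma plus ICI.

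Igf2 was at 112.3, 237.8, 132.5, 32.06 and 207.6 CPM in control and at 40.45, 56.85, 34.67, 67.75 and 120.7 in ICI. It was at 34.69, 48.94, 50.17, 112.4 and 124.9 in melanoma and at 47.71, 164.6, 144.9, 264.2 and 113.6 in melanoma plus ICI. The control group reached both ends of the range: its replicate 4 had the lowest level of all 20 libraries and its replicate 2 the second highest. Igfbp2 was at 34.64, 133.6, 75.46, 38.15 and 129.7 CPM in control and at 20.29, 25.25, 18.43, 37.23 and 57.82 in ICI. It was at 17.57, 16.34, 19.32, 68.93 and 42.06 in melanoma and at 26.81, 60.91, 64.76, 145.3 and 74.55 in melanoma plus ICI. The 6 lowest Igfbp2 values were all in ICI or melanoma, yet melanoma replicate 4 lay above 3 of the melanoma plus ICI libraries. The receptor genes did not share this pattern. Igf1r averaged 89.93 ± 16.56 CPM (SD, n = 5) in control and 87.63 ± 4.22 in ICI, with 97.16 ± 5.13 in melanoma and 81.39 ± 12.34 in melanoma plus ICI, and Igf2r averaged 59.93 ± 18.74, 65.45 ± 4.63, 59.13 ± 4.26 and 59.09 ± 14.79.

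Slc6a13 encodes a GABA and taurine transporter, GAT2, of the meninges, and Slc22a6 an organic anion transporter. Slc6a13 lies at chr6:121300227-121337733 and Slc22a6 at chr19:8617996-8628299, both on the forward strand. Slc6a13 was at 23.47, 5.44, 7.56, 6.87 and 9.52 CPM in control and at 7.77, 2.6, 2.14, 9.18 and 10.84 in ICI. It was at 3.95, 9.22, 10.87, 6.58 and 15.24 in melanoma and at 11.74, 23.14, 8.75, 18.52 and 11.21 in melanoma plus ICI. Control replicate 1 was the highest of all libraries while the other 4 controls lay below 10 CPM, within the range of the ICI libraries. Slc22a6 averaged 7.79 ± 6.30 CPM (SD, n = 5) in control and 6.37 ± 4.41 in ICI, with 8.29 ± 3.88 in melanoma and 9.88 ± 3.14 in melanoma plus ICI, and control replicate 1 was again the highest library.

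Aebp1, which encodes a collagen-binding secreted protein of the carboxypeptidase family, lies at chr11:5861947-5872088 on the forward strand. It averaged 28.38 ± 12.88 CPM (SD, n = 5) in control and 23.12 ± 9.61 in ICI, with 31.04 ± 12.58 in melanoma and 34.94 ± 11.53 in melanoma plus ICI. The highest library exceeded the lowest by 4.57-fold, from 10.91 to 49.83 CPM, the smallest such ratio of the 10.

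How the genes varied among themselves was measured by correlation of log2 CPM over the 20 libraries. All 45 pairs had a positive Pearson r, from 0.08 to 0.93 with a median of 0.65, and 35 pairs passed an adjusted p of 0.05 (permutation test, 100000 resamples, two-sided, Benjamini-Hochberg over the 45 pairs). Spearman's rho ranged from 0.13 to 0.95 with a median of 0.65 and 34 pairs passing. With each group's mean removed, the median r was 0.56 and 44 of the 45 pairs stayed positive, and without the 2 libraries farthest from the median of the first gene of each pair it was 0.58, with 43 positive.

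The pairs fell into sets that the list's name does not separate. Col1a1, Col1a2, Col3a1, Aebp1, Slc6a13 and Slc22a6 formed the tightest set, with r between 0.83 and 0.93 in its 15 pairs, between 0.81 and 0.95 with group means removed, and between 0.75 and 0.90 without the 2 farthest libraries. Igf2 and Igfbp2 formed a pair at r = 0.91 (rho = 0.85, adjusted permutation p = 3.21e-05 for r and 5e-05 for rho), and their r was 0.95 without the 2 farthest libraries. Against the 6 genes of the tight set, Igf2 had r between 0.41 and 0.73 and Igfbp2 between 0.19 and 0.55. Dcn had r between 0.39 and 0.61 with that set, 0.20 with its neighbour Lum (rho = 0.18, adjusted permutation p = 0.438 and 0.48) and 0.08 with Igfbp2. Lum had r between 0.45 and 0.69 with the set, or 0.15 and 0.64 without the 2 farthest libraries, and 0.65 with Igfbp2. The sets were drawn after the correlations were seen and are a description.

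**Figure D3:**
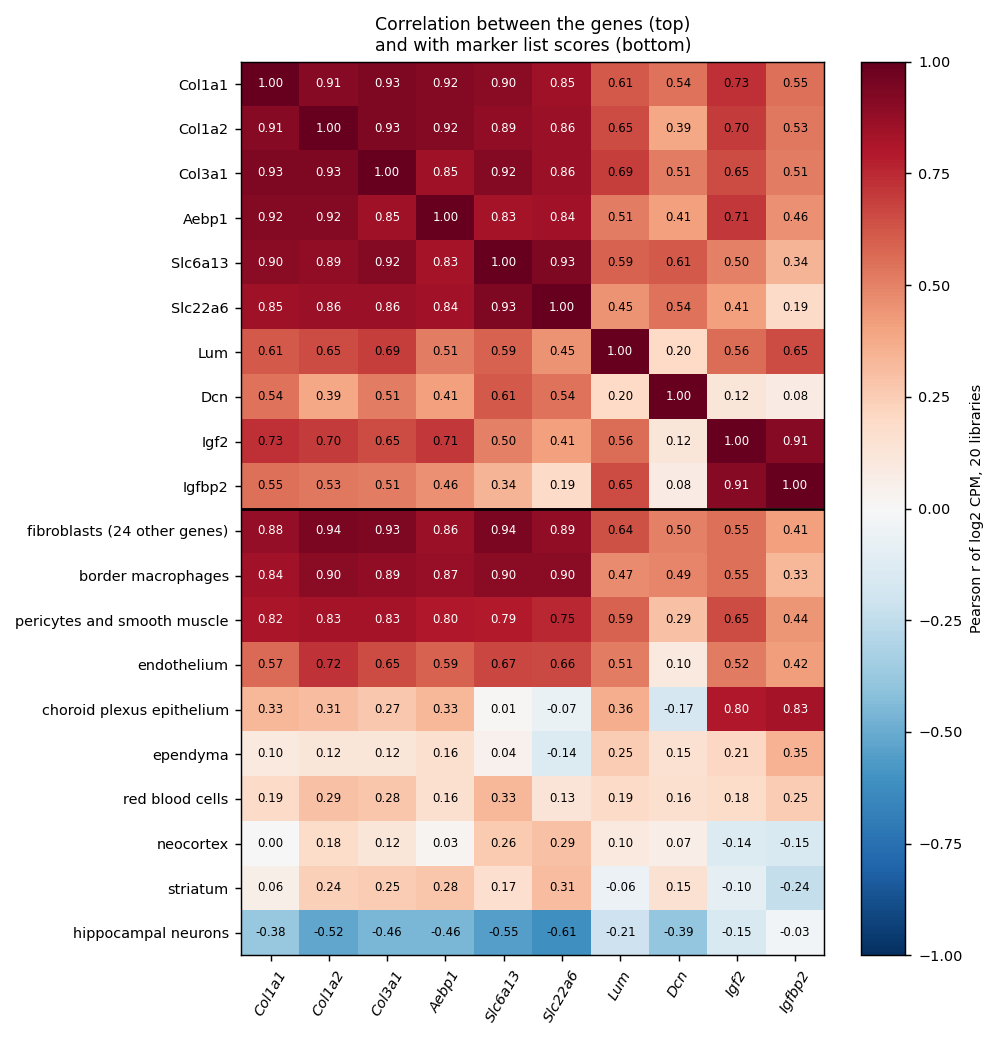
Pearson r of log2 CPM over 20 libraries between the 10 genes (top block) and of each gene with the score of 10 marker lists, the mean log2 CPM of the list's genes (bottom block). The first 6 genes correlate at 0.83 to 0.93 with each other and at 0.86 to 0.94 with the fibroblast score. Of these, Slc22a6 and Aebp1 have a slightly higher r with the border macrophage score, 0.90 and 0.87, than with the fibroblast score, 0.89 and 0.86. Igf2 and Igfbp2 have their highest r with the choroid plexus score, 0.80 and 0.83.

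Control replicates 1 and 2 show the division in single animals. Control replicate 1 had 38.13 CPM of Col1a2, 23.47 of Slc6a13 and 34.64 of Igfbp2, and control replicate 2 had 17.4, 5.44 and 133.6. The choroid plexus score, the mean log2 CPM of its markers, was 0.51 in the first and 6.41 in the second, and the fibroblast score was 2.99 and 1.98. The ratio of Igfbp2 to Col1a1 was lowest of all libraries in the first, at 1.31, and highest in the second, at 13.3.

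The label was checked against markers outside the list. The score of the 24 other fibroblast markers, among them Aldh1a2, Foxc1 and Ptgds, had r between 0.86 and 0.94 with the 6 genes of the tight set (rho between 0.87 and 0.93; adjusted permutation p = 6.67e-05 for each r, over 100 gene and list pairs, from the smallest p that 100000 resamples can give, 1e-05). These r stayed between 0.80 and 0.89 without the 2 libraries farthest from the median score and between 0.86 and 0.93 with group means removed. For the other 4 genes r with this score was lower, at 0.64 for Lum, 0.55 for Igf2, 0.50 for Dcn and 0.41 for Igfbp2, and the adjusted p was 0.00892, 0.0409, 0.0675 and 0.168 (permutation test). By this measure the name of fibroblast genes described the 6 genes of the tight set more closely than it described Dcn and Igfbp2. The difference between these correlations was not tested. Border macrophage markers had r between 0.84 and 0.90 with the tight set, and markers of pericytes and smooth muscle between 0.75 and 0.83. For Slc22a6 and Aebp1 the r with border macrophage markers, 0.90 and 0.87, was slightly above that with the fibroblast score, 0.89 and 0.86. Their rho was lower with border macrophage markers, at 0.85 and 0.88, than with the fibroblast score, at 0.87 and 0.93. Hippocampal neuron markers had r between -0.61 and -0.38 with the tight set. The part of these cell types in the levels of the 10 genes was not tested.

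The choroid plexus score of the libraries had its widest gap between 2.66 and 3.82, with 8 libraries below and 12 above. Over all 20 libraries it had r = 0.80 with Igf2 and 0.83 with Igfbp2 (rho = 0.82 and 0.85; adjusted permutation p = 0.000263 and 6.67e-05). The libraries were also read on each side of the gap, a division made after the scores were seen. Among the 12 libraries above it, r was 0.80 for Igf2 and 0.91 for Igfbp2 (permutation p = 0.00173 and 5e-05, adjusted over 6 relations 0.00519 and 0.0003). Among the 8 below it, r was -0.39 and -0.42 (exact permutation p = 0.361 and 0.287), and the difference between both sides was not tested. These p-values take no account of where the cut was placed, and another interval without libraries, 1.53 to 2.63, was nearly as wide. Mean Igfbp2 was 76.3 CPM in the 12 and 23.9 CPM in the 8 libraries, and mean Igf2 145.7 and 50.1 CPM. Col3a1 had r = 0.14 above the gap and -0.50 below it. The libraries above the gap were 3 of control, 3 of ICI, 2 of melanoma and 4 of melanoma plus ICI.

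**Figure D4:**
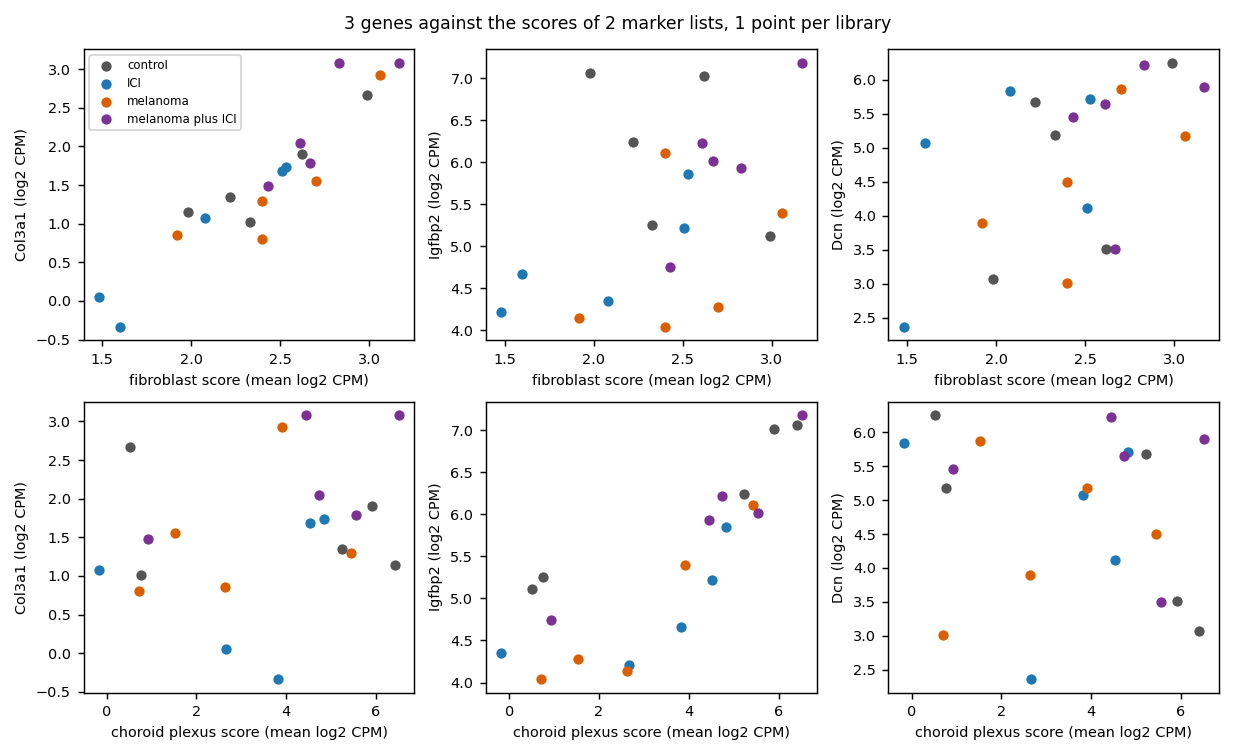
Log2 CPM of Col3a1, Igfbp2 and Dcn (vertical axes) against the fibroblast score (top row) and the choroid plexus score (bottom row), 1 point per library coloured by group. Col3a1 is higher where the fibroblast score is higher (r = 0.93), and Dcn follows neither score closely (r = 0.50 and -0.17). Igfbp2 is higher where the choroid plexus score is higher (r = 0.83). In the 12 libraries above the gap, a division made after the scores were seen, its r is 0.91.

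Genes outside the list were ranked by how closely their log2 CPM followed the mean of the 10 genes over the 20 libraries, as a measure of likeness alone. The highest r belonged to Colec12 at 0.957, a scavenger receptor, Efemp1 at 0.954 and Ogn at 0.947, both matrix genes, Slc6a20a at 0.941, an amino acid transporter, and Bmp7 at 0.926, a secreted growth factor. The next 10 were H2-Eb1, Cped1, Cd74, Mrc1, Olfml2a, Fbln1, Aldh1a2, Serping1, Fbln5 and Emilin1, at 0.911 down to 0.890, and H2-Eb1, Cd74 and Mrc1 among them are genes of antigen-presenting cells and macrophages. Single genes had different neighbours. Slc6a13 was nearest to Aldh1a2 (r = 0.984), the retinoic acid synthesis gene of the meninges, Slc22a6 to the proteoglycan gene Fmod (0.964) and Col3a1 to Efemp1 (0.957). Igf2 was nearest to the leptin receptor gene Lepr (0.968) and the sulfate transporter gene Slc13a4 (0.953), and Igfbp2 to Gpx8 (0.947). Dcn was nearest to Timp2 (0.955), an inhibitor of matrix proteases with a mean level of 311.5 CPM, to Nr2f2 (0.947), a nuclear receptor, and to Igfbp3 (0.944), none of which was among the 15 nearest to the mean. The nearest gene to Lum was Btd, at only 0.776. These r were the highest among named genes outside the 10 whose mean level reached 1 CPM, and they carry no test.

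The RefSeq promoter windows of GRCm38.p6 cover 7 of the 10 genes. They are shown for 3 genes whose RNA moved together, Col1a2, Col3a1 and Slc22a6 (r of 0.86 to 0.93 with each other). A window is also shown for Igfbp2, whose r with these 3 genes was lower, at 0.53, 0.51 and 0.19 in that order. Each is the 250 bases before an annotated start, 5′ to 3′ on the forward strand, from chr6:4505368-4505617, chr1:45311288-45311537, chr19:8617746-8617995 and chr1:72824230-72824479. Capitals mark matches on either strand to 3 short promoter motifs. The first is TATAAA, which general transcription factors recognise. The second is CCAAT, which the factor NF-Y recognises. The third is GGGCGG, which Sp1 and related factors recognise.
Col1a2: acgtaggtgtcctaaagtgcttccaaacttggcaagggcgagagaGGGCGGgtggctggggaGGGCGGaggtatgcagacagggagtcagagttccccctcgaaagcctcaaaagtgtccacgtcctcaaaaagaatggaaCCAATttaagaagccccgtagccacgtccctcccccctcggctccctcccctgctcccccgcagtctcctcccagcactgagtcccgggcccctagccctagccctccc
Col3a1: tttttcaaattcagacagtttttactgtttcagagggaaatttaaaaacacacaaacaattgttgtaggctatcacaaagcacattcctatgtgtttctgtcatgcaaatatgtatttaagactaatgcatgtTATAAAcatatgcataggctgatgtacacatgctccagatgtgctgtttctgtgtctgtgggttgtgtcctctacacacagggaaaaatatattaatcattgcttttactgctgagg
Slc22a6: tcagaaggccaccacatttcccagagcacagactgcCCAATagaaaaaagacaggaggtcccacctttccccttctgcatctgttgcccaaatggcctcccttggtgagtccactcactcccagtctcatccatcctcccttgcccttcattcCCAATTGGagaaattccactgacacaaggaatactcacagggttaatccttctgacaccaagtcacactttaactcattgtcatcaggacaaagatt
Igfbp2: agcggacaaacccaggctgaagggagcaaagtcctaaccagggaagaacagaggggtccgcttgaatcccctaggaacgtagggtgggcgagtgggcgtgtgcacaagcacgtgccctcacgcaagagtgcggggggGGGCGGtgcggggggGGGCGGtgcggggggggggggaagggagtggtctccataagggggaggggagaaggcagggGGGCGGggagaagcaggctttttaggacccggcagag
The windows share little by these letters. That of Col1a2 holds GGGCGG 205 and 188 bases and CCAAT 109 bases before the start, and it is 62.0% G and C. That of Col3a1 holds TATAAA 117 bases before the start and is 35.2% G and C. That of Slc22a6 holds CCAAT 214 and 97 bases before the start, and the second overlaps a copy on the other strand, so that CCAATTGG is in capitals. The window shown for Igfbp2 holds GGGCGG 3 times, the nearest 37 bases before the start, while a second window of this gene, at chr1:72825137-72825436, holds none of the motifs. The 7 genes have 13 whole windows of 300 bases, of which 6 hold GGGCGG, 5 hold CCAAT, 1 holds TATAAA, 1 holds CAGCTG and none holds GTAAACA. Over all 32851 windows the shares are 35.66% for GGGCGG, 37.41% for CCAAT, 13.62% for TATAAA, 16.3% for CAGCTG and 3.65% for GTAAACA. The matches describe letters in these windows.

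The group comparisons asked how checkpoint antibodies and melanoma, alone and together, changed RNA levels in the hippocampus. In each of 6 contrasts 0% of the 18427 tested genes passed an adjusted p of 0.05 (edgeR quasi-likelihood test, Benjamini-Hochberg), and so none of the 10 genes did. DESeq2 called 0 to 46 genes per contrast and limma voom 0 to 25, and neither called any of the 10. Counts at an unadjusted p under 0.05 are given below as a description, beside the share of all tested genes that reached it in the main fit. No such share is given for fits with a covariate or with libraries left out. A changed count in those fits therefore cannot be set against all genes. Several contrasts share a group of libraries, so their values are not independent of each other. The plot of fold changes gives every interval.

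**Figure D5:**
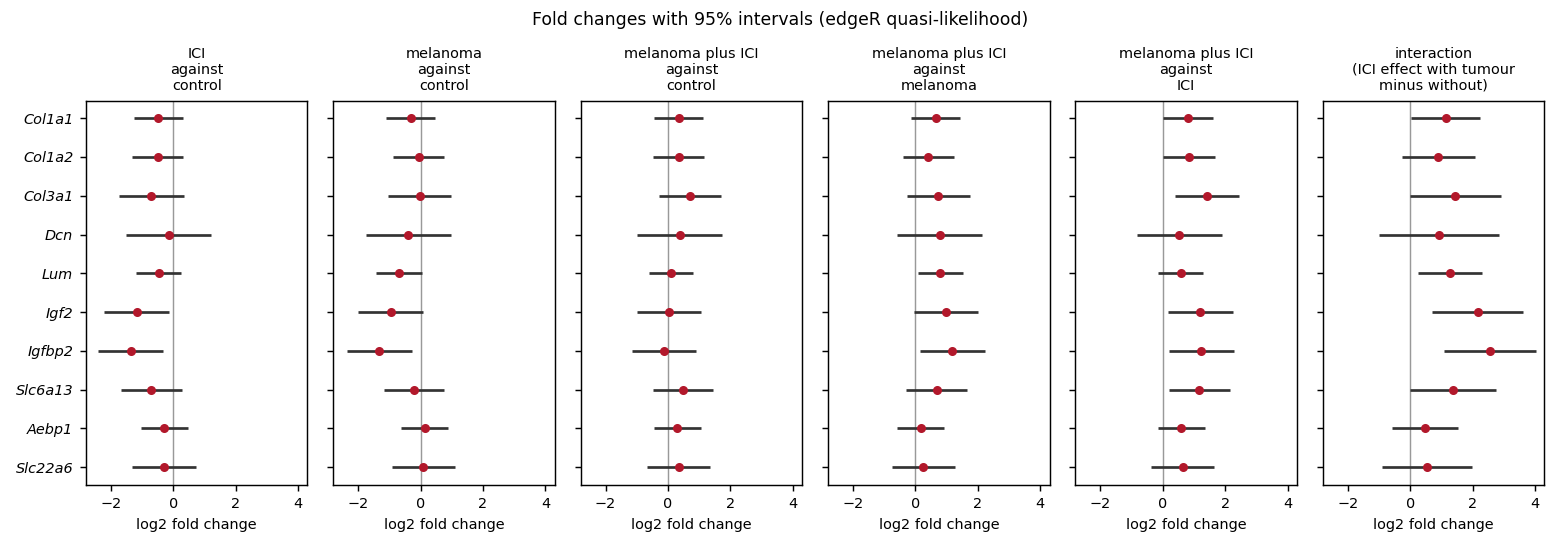
Log2 fold change (points) and 95% interval (lines) of each gene in 6 contrasts of the edgeR fit, the last being the difference between the ICI effects with and without a tumour. All 10 points lie above 0 in the 3 panels on the right, and before any adjustment the interval excludes 0 for Igf2 in 3 panels and for Igfbp2 in 5.

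Checkpoint antibodies in mice without a tumour came with lower mean levels of all 10 genes than control, with a median log2 fold change of -0.49 against -0.01 over all tested genes. Of the 10, 2 reached an unadjusted p under 0.05, both lower, where 5.23% of all genes reached it and 3.15% did so as lower. These were Igfbp2, at -1.37 ± 0.50 (SE; adjusted p = 0.7665), and Igf2, at -1.17 ± 0.50 (adjusted p = 0.7665). The collagens lay between -0.71 and -0.48 and Dcn at -0.15 ± 0.65, all with intervals that include 0. All 12 choroid plexus markers had negative values in this contrast, with a median of -1.39, as did all 10 endothelium markers, 4 of them at an unadjusted p under 0.05. Of the 24 other fibroblast markers 3 had positive values, with a median of -0.47. Positive values were also few among markers of pericytes and smooth muscle (2 of 12, median -0.35, 4 lower at that level), border macrophages (1 of 9, median -0.46) and red blood cells (0 of 5, median -1.09), and among those of neocortex (1 of 8, median -0.33). All 10 hippocampal neuron markers had positive values, with a median of 0.23. With the choroid plexus score as a covariate Igfbp2 was at -1.01 and Igf2 at -0.90. With the fibroblast score as a covariate, an alternative chosen after seeing the data, Igfbp2 was at -1.24 and Igf2 at -0.97, while Col1a2 was at 0.01, Aebp1 at 0.17, Dcn at 0.46 and Slc22a6 at 0.47, and 1 of the 10 genes reached that level. The part of these cell types in the values was not tested. Control replicate 1 moved most of these values: without it, Col1a1 went from -0.48 to -0.14, Slc6a13 from -0.70 to -0.18, Slc22a6 from -0.29 to 0.33 and Dcn from -0.15 to 0.31. The count of 2 became 1 without control replicate 2 or 5 or without ICI replicate 1, 2 or 3, and 3 without ICI replicate 4.

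Melanoma under isotype antibody against control gave a median of -0.26 over the 10 genes, and Aebp1 and Slc22a6 had positive values. Igfbp2 alone reached an unadjusted p under 0.05, as lower, at -1.33 ± 0.50 (SE; adjusted p = 0.8708), where 5.11% of all genes reached it and 2.41% as lower. Igf2 was at -0.96 ± 0.50 and Lum at -0.70 ± 0.35, and the 3 collagens at -0.32, -0.06 and -0.03. Striatum markers were higher in this comparison, with 8 of 8 at an unadjusted p under 0.05 and a median of 2.32. The striatum score was 5.31, 6.7 and 5.81 in melanoma replicates 1, 3 and 5. It was 2.83 and 2.98 in replicates 2 and 4, within the 2.76 to 3.43 of control. All 12 choroid plexus markers had negative values with a median of -1.51. Positive values were found for 3 of 12 markers of pericytes and smooth muscle (2 lower at an unadjusted p under 0.05), 4 of 10 of endothelium (2 lower) and 6 of 9 of border macrophages (2 higher). The part of these tissues in the values of the 10 genes was not tested. With the choroid plexus score as a covariate Igf2 was at -0.64 and Igfbp2 at -1.0. Of the 24 other fibroblast markers 12 had positive values and the median was 0.01. With the fibroblast score as a covariate 3 of the 10 genes reached that level. The small values changed sign with single libraries: without melanoma replicate 5, Aebp1 was at -0.08 and Slc22a6 at -0.17, and without control replicate 1, Col1a1, Col1a2 and Col3a1 were at 0.02, 0.26 and 0.33. Without melanoma replicate 5, 3 of the 10 genes reached an unadjusted p under 0.05, and without control replicate 2 or 4, ICI replicate 2 or 4, melanoma replicate 4 or melanoma plus ICI replicate 4 it was 2.

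In mice with both a tumour and checkpoint antibodies none of the 10 genes reached an unadjusted p under 0.05 against control, where 2.38% of all genes did. Log2 fold changes ran from -0.14 ± 0.49 (SE) for Igfbp2 to 0.70 ± 0.48 for Col3a1, with a median of 0.34 and 9 positive values. Igf2, at 0.03 ± 0.49, had an interval from -1 to 1.05. In the same contrast 21 of the 24 other fibroblast markers had positive values, with a median of 0.28, as did 8 of 8 striatum markers, with a median of 1.05, and 5 of 10 hippocampal neuron markers were lower at an unadjusted p under 0.05. The striatum score was 5.56 in melanoma plus ICI replicate 3, against 3.12 to 3.59 in the other 4 libraries of its group and 2.76 to 3.43 in control. With the fibroblast score as a covariate the values of Col1a1, Col1a2, Lum, Igf2, Aebp1 and Slc22a6 turned negative, at -0.09, -0.14, -0.28, -0.45, -0.13 and -0.04, and again 0 of the 10 genes reached that level. The part of these cell types in the values was not tested. Without melanoma plus ICI replicate 4, Lum was at -0.16 and Igf2 at -0.30. Without control replicate 1, 3 genes reached an unadjusted p under 0.05.

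Checkpoint antibodies in tumour-bearing mice, compared with tumour-bearing mice on isotype antibody, came with higher means of all 10 genes and a median of 0.71 against 0.02 over all genes. Lum, at 0.80 ± 0.35 (SE; adjusted p = 0.825), and Igfbp2, at 1.18 ± 0.50 (adjusted p = 0.825), reached an unadjusted p under 0.05, where 5.5% of all genes did so and 2.63% as higher. Igf2 was at 0.99 ± 0.50, and the collagens lay between 0.40 and 0.74. The 12 choroid plexus markers all had positive values, with a median of 1.51, and with their score as a covariate Igf2 was at 0.45 and Igfbp2 at 0.67. All 8 striatum markers had negative values, with a median of -1.25 and 3 at an unadjusted p under 0.05, and hippocampal neuron markers had a median of -0.45. Positive values were found for 11 of 12 markers of pericytes and smooth muscle (median 0.13, 2 higher at that level), 6 of 10 of endothelium (median 0.08, 2 higher) and 5 of 9 of border macrophages (median 0.12). Of the 24 other fibroblast markers 20 had positive values, with a median of 0.17 and 2 at that level. With the fibroblast score as a covariate Aebp1 was at -0.12, Slc22a6 at -0.13 and Col1a2 at 0.04 instead of 0.40, and 1 of the 10 genes reached that level. The part of these tissues in the values was not tested. The count of 2 became 0 without melanoma replicate 1 or 2 or melanoma plus ICI replicate 4, 1 without melanoma replicate 3, and 4 without melanoma replicate 5 or melanoma plus ICI replicate 1.

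Among mice on checkpoint antibodies, those with a tumour had higher means of all 10 genes than those without. The median log2 fold change was 0.83, and 6 genes reached an unadjusted p under 0.05, where 8.63% of all genes did and 4.12% as higher. Col3a1 had the largest value, 1.41 ± 0.50 (SE; interval 0.38 to 2.45, adjusted p = 0.5631), followed by Igfbp2 at 1.23, Igf2 at 1.20, Slc6a13 at 1.17, Col1a2 at 0.84 and Col1a1 at 0.82. Of the 24 other fibroblast markers all had positive values, with a median of 0.69 and 12 at an unadjusted p under 0.05, while 6 of 10 hippocampal neuron markers were lower at that level, with a median of -0.69. Positive values were also found for 9 of 9 border macrophage markers (median 0.80, 4 at that level), 10 of 10 of endothelium (median 0.31, 5 at that level), 11 of 12 of pericytes and smooth muscle (median 0.30, 5 at that level) and 12 of 12 of choroid plexus (median 1.38). The same held for 8 of 8 striatum (median 1.01), 8 of 8 neocortex (median 0.41, 2 at that level) and 5 of 5 red blood cell markers (median 0.92). The part of these cell types in the values was not tested. With the fibroblast score as a covariate 0 of the 10 genes reached an unadjusted p under 0.05. Col1a1, Col1a2, Dcn, Lum, Aebp1 and Slc22a6 were then between -0.51 and -0.15, with Slc6a13 at 0.06, Col3a1 at 0.19, Igf2 at 0.51 and Igfbp2 at 0.71. With the choroid plexus score as a covariate Col3a1 stayed at 1.32 and Slc6a13 at 1.24, while Igf2 was at 0.72 and Igfbp2 at 0.68. The count of 6 became 1 without ICI replicate 3, 2 without ICI replicate 1, 2 without melanoma plus ICI replicate 4, and 3 without replicate 2 of either group.

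The interaction asks whether checkpoint antibodies acted differently in tumour-bearing and tumour-free mice. All 10 values were positive, with a median of 1.20 against 0.025 over all genes, and 5 reached an unadjusted p under 0.05, where 10.3% of all genes did and 5.99% as higher. Igfbp2 had the largest value, 2.55 ± 0.71 (SE; interval 1.08 to 4.03, unadjusted p = 0.001776, adjusted p = 0.3723), rank 87 of all tested genes. Igf2 was at 2.16 ± 0.70 (adjusted p = 0.4756), Slc6a13 at 1.38, Lum at 1.27 and Col1a1 at 1.13. Choroid plexus markers had a median of 2.93 in the same contrast, with 12 of 12 positive and 4 at an unadjusted p under 0.05. With their score as a covariate Igfbp2 was at 1.68 and Igf2 at 1.35. Of the 24 other fibroblast markers 22 had positive values, with a median of 0.75 and 5 higher at an unadjusted p under 0.05. Positive values were also found for 10 of 12 markers of pericytes and smooth muscle (median 0.50, 4 at that level), 9 of 10 of endothelium (median 0.39, 4 at that level) and 7 of 9 of border macrophages (median 0.49, 0 at that level). All 8 striatum markers and all 10 hippocampal neuron markers had negative values, with medians of -1.23 and -0.64. With the fibroblast score as a covariate the count of 5 became 2: Igfbp2 was at 2.19 and Igf2 at 1.70, while Slc6a13 was at 0.33, Col1a1 at 0.21, Aebp1 at -0.29 and Slc22a6 at -0.60. The part of these tissues in the values was not tested. Without control replicate 1 Slc22a6 went from 0.55 to -0.07, and leaving out any 1 of control replicates 1 and 5, ICI replicates 1, 2 and 3, melanoma replicates 1 to 4, or melanoma plus ICI replicates 2 and 4 reduced the count of 5 to 3. Without both libraries that stand apart, the counts for the 6 contrasts in the order given were 2, 2, 0, 4, 7 and 6, with no share of all genes for this fit.

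Other genes of these pathways, taken from lists written for this purpose with earlier results known, passed the adjusted threshold in no contrast. Of the 120 tested genes of the 6 lists, 26 were higher and 1 lower at an unadjusted p under 0.05 in melanoma plus ICI against ICI, or 21.7% and 0.8%, where 8.63% of all genes reached it and 4.12% as higher. In the interaction 25 were higher and 1 lower, or 20.8% and 0.8%, where 10.3% of all genes reached that level and 5.99% as higher. In ICI against control 0 were higher and 16, or 13.3%, were lower, where 5.23% of all genes reached it and 3.15% as lower. Melanoma against control had 4 higher and 2 lower, or 3.3% and 1.7%, which is near the 5.11% of all genes. Melanoma plus ICI against control had 2 higher and 0 lower, or 1.7% and 0.0%, near the 2.38% of all genes. Melanoma plus ICI against melanoma had 8 higher and 3 lower, or 6.7% and 2.5%, where 5.5% of all genes reached it and 2.63% as higher. Against ICI, melanoma plus ICI had 5 of 32 other collagen and matrix genes at an unadjusted p under 0.05, all higher, among them Fbln1, Fbln5 and Mgp. The same contrast had 6 higher and 1 lower of 25 genes of collagen synthesis and crosslinking, 4 of 10 other small leucine-rich proteoglycans, all higher (Bgn, Fmod, Ogn and Omd), and 6 of 18 genes of profibrotic signalling, all higher, with Tgfb1, Tgfb3 and Acta2 among them. In this contrast 5 of 12 markers of pericytes and smooth muscle were also higher at that level, Acta2 being one of them, as were 5 of 10 endothelium and 12 of 24 fibroblast markers. Their part in the values of these lists was not tested. Of the 17 tested genes of the insulin-like growth factor system 2 were higher, Igfbp6 and Igfbp7, and the median of that list was -0.07. Of 18 other meningeal and barrier transporters 3 were higher, and all 18 values were positive with a median of 0.40.

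The smallest unadjusted p over these lists belonged to Igfbp7, which encodes a secreted binding protein, in both comparisons of ICI with another group. It averaged 15.54 ± 3.98 CPM (SD, n = 5) in control and 9.91 ± 1.57 in ICI, with 13.46 ± 2.73 in melanoma and 16.87 ± 4.33 in melanoma plus ICI. On the log2 scale the change was -0.65 ± 0.20 (SE) for ICI against control and 0.77 ± 0.20 for melanoma plus ICI against ICI (adjusted p = 0.7665 and 0.5631). Mmp14, a membrane-bound collagenase, led the lists for checkpoint antibodies in tumour-bearing mice, at 0.43 ± 0.13 (adjusted p = 0.825), and in the interaction, at 0.82 ± 0.18 (adjusted p = 0.2527). It averaged 15.9 ± 1.2 CPM in control and 12.2 ± 1.2 in ICI, with 12.4 ± 1.1 in melanoma and 16.7 ± 3.8 in melanoma plus ICI. P4ha2, a prolyl hydroxylase subunit of collagen synthesis, led both contrasts of tumour-bearing mice with control, at 0.39 ± 0.12 in melanoma and 0.28 ± 0.12 in melanoma plus ICI (adjusted p = 0.7342 and 0.9997).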

How the data were processed

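The authors deposited raw counts, 1 table per library, with 49671 genes and their coordinates, strand and exonic length, per the file headers. The submitters' processing notes name STAR 2.5.2b and DESeq2 1.16.1 without a role. The counter, strandedness and genome build are not given in the sources used here. Of the identifiers, 49412 occur in GENCODE M21, an annotation of GRCm38, and 45214 have the same start and end there. Symbols came from GENCODE M21.

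Groups and replicate numbers came from the sample titles. Libraries of 1 group differed by a chi-square of 10.5 to 120 per gene over 40 pairs, and none was counted as a duplicate. Counts were analysed with edgeR 4.0.16 in R 4.3.3: filterByExpr (minimum count 10, minimum total 15), TMM factors between 0.9555 and 1.0432, and a robust quasi-likelihood fit with 1 mean per group over 20 libraries. P-values were adjusted by Benjamini-Hochberg over 18427 genes within each contrast, at a threshold of 0.05, and intervals are at 95%. Scripts were tested on simulated data. CPM uses the TMM-scaled totals, and log2 CPM a prior count of 2. The depth of 21990624 to 25735149 counts gives the 10 genes 16 to 6690 counts per library.

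The 10 genes, the pathway and marker lists, the contrasts and the naming rule were chosen with earlier results of these data known. The rule names all 10 genes, the list gene with the smallest p per contrast where none passes, and the 15 genes nearest to the mean of the 10 and the 3 nearest to each among genes with a mean of at least 1 CPM. Others, such as Igf1r, were picked after their values were seen. Alternatives were size factors, DESeq2 1.42.0, limma 3.58.1 voom, all genes kept, a fit of the compared groups alone, a replicate block, the choroid plexus score as a covariate, a prior count of 0.5 for correlations, and each library left out. The fibroblast score as a covariate and the omission of 2 libraries were added after seeing the data.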

Additional observations from a re-analysis of the deposited data

Results flagged for a closer look

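In 5 of the 40 combinations of gene and group, the highest library lay farther from the next than Dixon's criterion allows for 5 samples. Chance meets this criterion in about 1 of 20 groups when values are normally distributed. The criterion was applied to linear CPM of genes that vary together, so the 5 of 40 cannot be set against that rate. Control replicate 1 was set apart for both transporters, with Slc6a13 at 23.47 CPM beside a next value of 9.52 and Slc22a6 at 18.77 CPM beside 7.47. Its fibroblast score, 2.99, was also the highest of the control group, and its hippocampal neuron score, 5.03, the lowest. Melanoma replicate 5 was set apart for Col3a1, at 7.51 CPM beside 2.86, with a fibroblast score of 3.06, the highest of its group. Lum was set apart in control replicate 5, at 5.79 CPM beside 3.6, and in melanoma plus ICI replicate 4, at 6.71 CPM beside 3.68. The part of tissue composition in these values was not tested.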

How the results depend on the processing

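None of the 10 genes passed an adjusted p of 0.05 in any contrast under any alternative that was run, the smallest being 0.052 for Igfbp2 and 0.068 for Igf2 in the interaction. Over all genes, the count past the threshold was 0 in each contrast, and other settings called a few. DESeq2 called 1 gene for ICI against control, 4 for melanoma against control, 46 for the interaction and 4 for melanoma plus ICI against ICI. Voom called 1 for melanoma against control, 25 for melanoma plus ICI against melanoma and 19 for the interaction. A fit of only the groups compared called 3 for melanoma against control. Leaving out 1 library gave 0 to 3 genes for melanoma against control, 0 to 12 for melanoma plus ICI against melanoma and 0 to 11 for the interaction, and the highest of each came without melanoma plus ICI replicate 3. Without both libraries that stand apart, 1 gene passed in the interaction. The cause of these differences was not tested.

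With the replicate block, 0 genes and 0 of the 10 passed in each contrast, and 2, 3, 0, 3, 7 and 5 of the 10 reached an unadjusted p under 0.05, beside 2, 1, 0, 2, 6 and 5 without it. Of all tested genes, 4.98%, 4.89%, 1.87%, 5.27%, 7.98% and 9.38% reached that level with the block. Without it the shares were 5.23%, 5.11%, 2.38%, 5.5%, 8.63% and 10.3%. The replicate numbers are shared by name only: the correlation of deviations of same-numbered libraries ran from -0.35 to 0.53 over 30 pairs, with 10 above 0.1. Leaving out 1 library gave 1 to 3, 1 to 3, 0 to 3, 0 to 4, 1 to 7 and 3 to 7 of the 10 at that level. The share of all genes is not given for these fits. Voom gave 7 for melanoma plus ICI against melanoma and 8 against ICI, where it put 14.9% and 11.7% of all genes at that level. Values of Igf2 and Igfbp2 kept their sign in every setting run except in melanoma plus ICI against control. What depth limits was not tested: Col3a1, at 16 to 212 counts per library, and Igf2, at 695 to 6690, had the same SE of 0.50 in ICI against control.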
